A study of Mus musculus with 5 samples.

Results

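Major histocompatibility complex (MHC) class II presentation genes were followed in the lungs of C3H mice with allergic airway sensitisation. The set holds 9 genes: H2-Aa, H2-Ab1, H2-Eb1, H2-DMa, H2-DMb1, H2-Oa, H2-Ob, Cd74 and Ciita. A member was any probe whose annotation named 1 of these genes alone and that was measured on 4 or more of the 5 arrays. All 9 genes were found, each by 1 probe with values on all 5 arrays, among 9715 genes tested in the series. The 5 arrays each compared 1 C3H mouse that had been sensitised to ovalbumin and challenged with it (ova mice 1 to 5) with the same pool of control C3H lungs. Ovalbumin is an egg-white protein used as a model allergen, and C3H is an inbred strain that was common to both channels of every array. RNA was amplified before hybridisation. The sources used here do not give the number of mice in the pool, what the controls received, the age and sex of the animals or the time after challenge.

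Class II molecules carry peptides from endosomes to the cell surface, where CD4+ T cells read them. An alpha and a beta chain form the dimer; in the mouse I-A is made from H2-Aa and H2-Ab1, and I-E from H2-Ea and H2-Eb1. The invariant chain, encoded by Cd74, fills the peptide groove and brings the dimer to the endosome, where proteases cut it down to a short remnant. H2-DM, a dimer of H2-DMa and H2-DMb1 products, removes that remnant and edits the peptides bound, and H2-DO, made from H2-Oa and H2-Ob, restrains H2-DM, chiefly in B cells. Ciita encodes the co-activator that factors bound to the X and Y boxes of class II promoters recruit. In the lung, class II is known from dendritic cells, B cells, macrophages and alveolar type 2 cells.

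A paired promoter element was found in 5 of the 9 members and is shown here because class II genes are known to be controlled together through it. The windows came from RefSeq (assembly GRCm38.p6 of C57BL/6J, a strain other than C3H) and span 250 bases before to 50 after a gene's start. Of the 9 members, 6 had a window that was searched, H2-DMa with more than 1. None was searched for H2-Ab1, Cd74 and Ciita. The member search left out 1 chromosome, so absence of a window from the source is not claimed for each of them. The letters searched were GNAAC, a core of the X box, followed on the same strand after 15 to 40 bases by ATTGG, the Y box. Members were searched for the pair on the gene's own strand, and the set of all promoter windows on both strands. These letters were chosen with the members' promoters in view. Capitals mark the motifs below, each sequence is written 5′ to 3′ on the gene's own strand, and each lies upstream of the start.
H2-Aa: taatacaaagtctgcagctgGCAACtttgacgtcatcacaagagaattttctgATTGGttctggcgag
H2-Eb1: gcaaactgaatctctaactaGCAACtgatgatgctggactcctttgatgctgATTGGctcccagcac
H2-DMb1: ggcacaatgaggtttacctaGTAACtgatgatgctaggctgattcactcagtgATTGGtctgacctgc
H2-Oa: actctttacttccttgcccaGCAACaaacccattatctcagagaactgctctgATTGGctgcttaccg
H2-Ob: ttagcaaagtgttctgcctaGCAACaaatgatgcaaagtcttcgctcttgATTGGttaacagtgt

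These stretches lie at chr17:34287857-34287924 on the minus strand for H2-Aa, and on the plus strand at chr17:34305756-34305822 for H2-Eb1, chr17:34153077-34153144 for H2-DMb1, chr17:34092283-34092350 for H2-Oa and chr17:34238798-34238862 for H2-Ob. The motifs are 28 bases apart in H2-Aa, H2-DMb1 and H2-Oa, 27 in H2-Eb1 and 25 in H2-Ob. The pair occurred on either strand in 4.23% of all 32851 promoter windows, a wider search than that of the members. Taken singly, ATTGG was in 37.4% of them and GNAAC in 84.8%. On the gene's own strand, neither window of H2-DMa held the pair. A match is a description of letters and not of factor binding.

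The deposited values are log ratios of the ova mouse and the pool, taken as log2, with each array centred on its median. The labels do not give the numerator of the ratio. Genes are therefore placed by sign only, below 0 (the negative side) or above 0 (the positive side). Retnla and Clca1, genes known to rise strongly in allergic airways, had mean log2 ratios of -4.79 ± 0.30 and -4.33 ± 0.40 (SD, n = 5), both on the negative side. If these genes rose here too, values below 0 mean higher in the ova mice than in the pool. No other measure of the direction was available, and a value below 0 is not to be read as a loss in the ova mice. The arrays ran the same way, with Pearson's r between 0.64 and 0.83 over probes for the array pairs. Between 11778 and 13320 probes had a value on an array. Mouse 1 had the narrowest ratios, with an SD over probes of 0.20 against 0.32 to 0.38 in the others. A ratio holds no level, so the labelled tissue could not be checked by level; 8 of 10 listed genes of alveolar type 2 cells were among those tested. In whole lung, a change in the number of cells of a type and a change in RNA per cell cannot be told apart.

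Class II genes did not shift as a block. Of the 9 members, 3 passed an adjusted p of 0.05 in limma's moderated test against 0, all on the negative side: H2-Eb1, H2-Aa and H2-DMb1. Genes past that threshold are said to be called. Across all genes 15.2% were called below 0 and 12.3% above it. No member was called on the positive side in limma, nor at an unadjusted p under 0.05, where 4 members lay on the negative side; 40.2% of all genes on either side were below that unadjusted p. The median of the 9 member means was -0.04, against 0.00 over all genes tested. All 5 mice were below 0 for 2 of the 9 members and above 0 for none. Of the 8024 genes with 5 values, 21.8% were below 0 in all mice, a similar share, and 19.3% above. From the most negative mean upwards the members ran H2-Eb1, H2-Aa, H2-DMa, H2-DMb1, Ciita, H2-Ob, H2-Ab1, H2-Oa and Cd74, and the 95% intervals of neighbours in that order overlapped throughout. With 1 pool on every array, each test rests on the spread among ova mice, and control mice add no spread of their own.

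**Figure D1:**
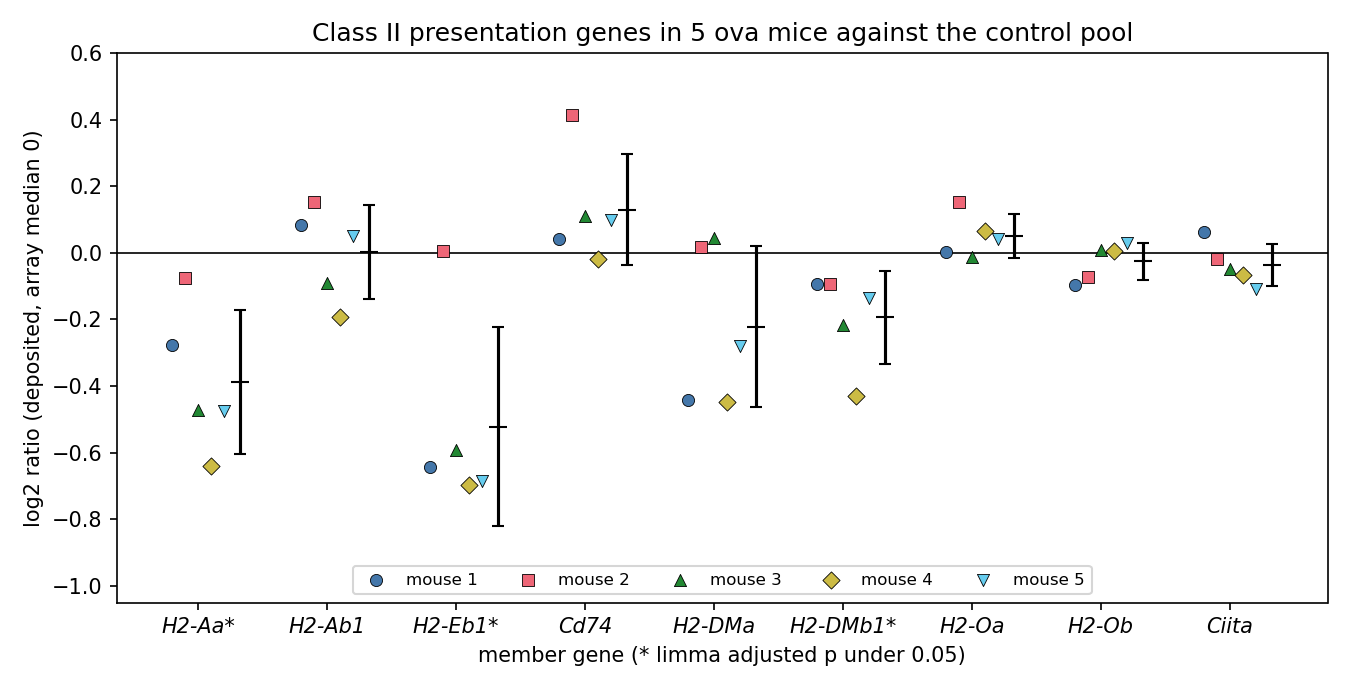
Log2 ratio (y axis) between ova mice 1 to 5 and the control pool for each of the 9 class II presentation genes (x axis). The labels do not give the numerator, so below 0 does not mean lower in the ova mice. Each symbol is 1 mouse and the black bar is the mean ± SD over 5 mice. H2-Aa and H2-DMb1 lie below 0 in all mice and H2-Eb1 in 4 of 5, while the values of Cd74 and H2-Ab1 lie around or above 0; asterisks mark limma adjusted p under 0.05.

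Among the chain genes, H2-Eb1, the I-E beta chain, had the largest ratio. Its log2 ratios in mice 1 to 5 were -0.64, 0.007, -0.59, -0.70 and -0.685. Mice 1, 3, 4 and 5 lay close together and mouse 2 stood near 0, apart from them. The mean was -0.52 ± 0.30 (SD, n = 5; limma adjusted p = 0.00893), a 1.44-fold difference if the log base is 2. Without mouse 2 the mean was -0.65 (limma adjusted p = 0.00157), and the call held whichever mouse was left out.

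H2-Aa, the I-A alpha chain, followed with log2 ratios of -0.28, -0.08, -0.47, -0.64 and -0.475 in mice 1 to 5. All mice were below 0, with mouse 2 the nearest to it. The mean was -0.39 ± 0.22 (SD, n = 5; limma adjusted p = 0.0103), or 1.31-fold, and the adjusted p stayed between 0.008 and 0.0449 when 1 mouse was left out.

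H2-Ab1, the beta chain that pairs with H2-Aa, did not share this displacement. Its log2 ratios were 0.085, 0.15, -0.09, -0.19 and 0.05, and its mean was 0.00 ± 0.14 (limma adjusted p = 0.99, n = 5). The 95% interval of the mean, -0.14 to 0.14, does not reach the mean of H2-Aa. H2-Ea, the I-E alpha chain gene, is no member of the set but completes the dimers. It had log2 ratios of 0.11, 0.18, -0.06 and 0.02 in mice 1, 2, 4 and 5, with a mean of 0.06 ± 0.10 (n = 4, limma adjusted p = 0.46).

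Cd74, the invariant chain gene, had log2 ratios of 0.04, 0.415, 0.11, -0.02 and 0.10 in mice 1 to 5. Mouse 2 was the highest and mouse 4 alone was below 0. The mean was 0.13 ± 0.17 (n = 5, limma adjusted p = 0.186), with a 95% interval of -0.02 to 0.28, and it was 0.06 without mouse 2. Of all genes tested, 80.3% had a mean below that of Cd74, whereas 3.93% had one below that of H2-Eb1 and 6.74% below that of H2-Aa.

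Partner genes were then set against each other within each mouse, over 6 pairs. H2-Aa lay below H2-Ab1 in all 5 mice, by 0.23 to 0.53, with a mean difference of -0.39 ± 0.11 (SD; exact two-sided sign-flip permutation p = 0.0625, 0.125 after Benjamini-Hochberg adjustment over the pairs). H2-Aa lay below Cd74 in all 5 mice, with a mean difference of -0.52 ± 0.12, and so did H2-Eb1, at -0.65 ± 0.14; both gave the same exact permutation p of 0.0625, or 0.125 adjusted. With 5 mice 0.0625 is the smallest p this test can give, so none of these differences could pass 0.05. H2-Eb1 lay below H2-Ea in all 4 mice that measured both, by -0.57 ± 0.27 (exact permutation p = 0.125, the smallest 4 mice allow; 0.188 adjusted). In mouse 2 that gap was -0.18, against -0.75 to -0.64 in the others. Each gene has 1 probe, so a difference between genes and a difference between their probes cannot be told apart.

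**Figure D2:**
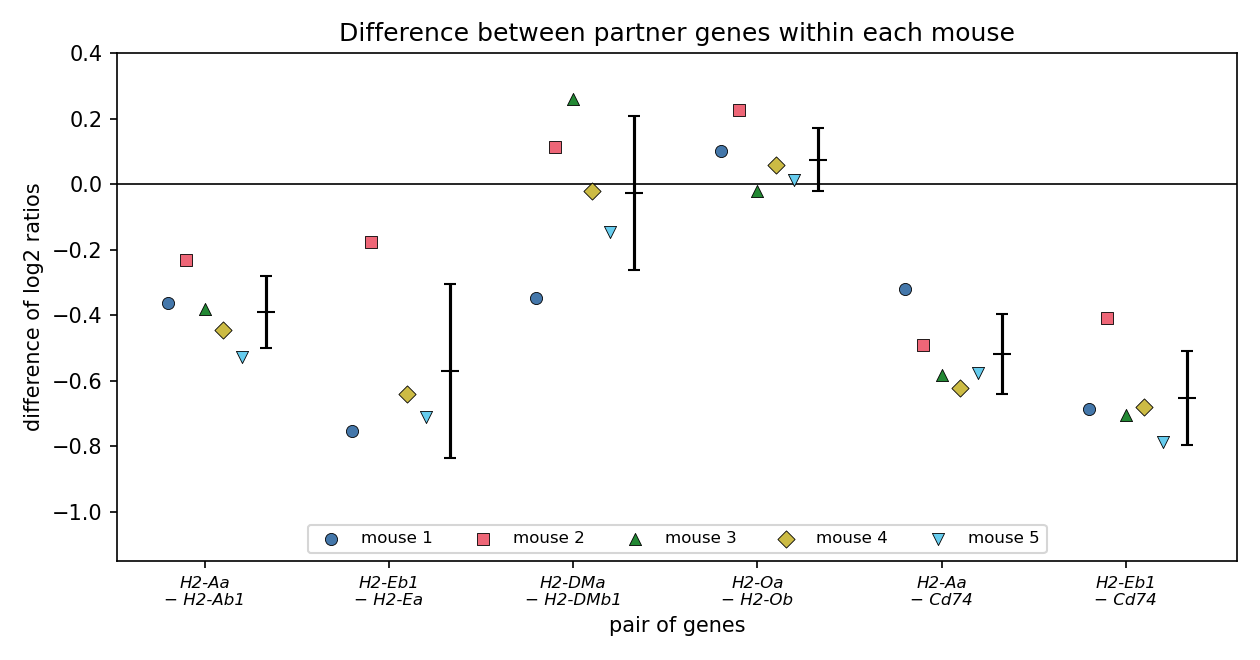
Difference of log2 ratios (y axis) between the 2 genes of each of 6 pairs (x axis), computed within each ova mouse; symbols are mice and the black bar is the mean ± SD. H2-Aa minus H2-Ab1, H2-Aa minus Cd74 and H2-Eb1 minus Cd74 are below 0 in all 5 mice, and H2-Eb1 minus H2-Ea in the 4 mice with both values, while H2-DMa minus H2-DMb1 lies on both sides.

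Of the H2-DM editor genes, H2-DMb1 passed and H2-DMa did not. H2-DMb1 had log2 ratios of -0.09, -0.09, -0.22, -0.43 and -0.14 in mice 1 to 5, all below 0 and lowest in mouse 4. Its mean was -0.19 ± 0.14 (n = 5, limma adjusted p = 0.0462), or 1.14-fold. The call was lost whichever mouse was left out, with adjusted p = 0.0547, 0.0682, 0.122, 0.0907 and 0.0948 without mice 1 to 5 in turn; the mean was then -0.22, -0.22, -0.19, -0.135 and -0.21. The plot of member means without each mouse shows this loss for H2-DMb1 and the calls that held for H2-Aa and H2-Eb1.

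H2-DMa split the mice. Its log2 ratios were -0.44, 0.02, 0.045, -0.45 and -0.28, so that mice 1, 4 and 5 were below 0 and mice 2 and 3 just above it. The mean, -0.22 ± 0.24 (limma adjusted p = 0.0949, n = 5), was as large as that of H2-DMb1 with a wider spread. The pair differed by -0.03 ± 0.23, on both sides of 0 (exact permutation p = 0.812, also after adjustment over the 6 pairs).

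H2-DO and the co-activator gave ratios near 0, as H2-Ab1 did. H2-Oa ranged from -0.01 to 0.15 with a mean of 0.05 ± 0.07 (limma adjusted p = 0.446, n = 5). H2-Ob ranged from -0.10 to 0.03, with a mean of -0.02 ± 0.06 (limma adjusted p = 0.711). Their difference was 0.07 ± 0.10 (exact permutation p = 0.188, 0.225 adjusted). The probe of H2-Oa lies 6 IDs from that of Socs1 (-1.07); the part of that neighbour in the value of H2-Oa was not tested. Ciita had log2 ratios of 0.06, -0.02, -0.05, -0.07 and -0.11, with a mean of -0.04 ± 0.06 (limma adjusted p = 0.59). The 95% intervals ran from -0.05 to 0.15 for H2-Oa, from -0.13 to 0.08 for H2-Ob and from -0.14 to 0.07 for Ciita. These intervals do not reach the means of H2-Aa and H2-Eb1. They rest on the spread of 1 probe per gene among the ova mice, and each SD was below the median SD over all genes, 0.127. Spot intensities were not used, so dim spots among these probes could not be told. Smaller shifts were less often recovered in simulated data with 200 shifted genes among 9715 in all. There limma recovered 0% of genes with a shift of 0.2 and 78% of genes with a shift of 0.5. In the real data, where more genes were called, H2-DMb1 passed at -0.19. Of the 5 genes with the paired promoter element, H2-Aa, H2-Eb1 and H2-DMb1 were called, and H2-Oa and H2-Ob were not.

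Mouse 2 had the highest ratio of the 5 mice for 5 of the 9 members, and mouse 4 the lowest for 6. The share of all genes with their extremes in these mice was not counted, so the counts cannot be called particular to the members. Mouse 4 also had the fewest probes with a value, 11778, and the lowest array weight in limma, 0.68 against 1.01 to 1.19. The median over the members was 0.007 in mouse 2 and -0.19 in mouse 4, and -0.09, -0.05 and -0.11 in mice 1, 3 and 5. The medians over all genes lay between -0.007 and 0.002. Retnla and Clca1 had their largest sizes in mouse 2, at -5.17 and -4.77. The reason for the differences between mice was not tested.

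Markers of cells that carry class II gave the following. Of 10 B cell genes tested, 6 were called below 0 and 0 above it; their median was -0.29. The medians of the B cell list were -0.175, -0.125, -0.35, -0.22 and -0.34 in mice 1 to 5, and 9, 6, 9, 7 and 9 of its genes lay below 0. Cd79a, a signalling chain of the B cell receptor, and Ms4a1, which encodes CD20, were picked out after their values were seen. Cd79a had 0.20 in mouse 2 and -0.90 to -0.52 in the others, and Ms4a1 had 0.01 in mouse 2 and -0.72 to -0.13 in the others. The mouse in which the H2-Eb1 ratio was near 0 was also the one in which the ratios of these picked genes were highest. With the sign of the ratio turned they would be lowest there. The B cell list was mixed in this respect, and Fcer2a had its lowest value, -0.43, in mouse 2. Fcmr, an Fc receptor for IgM, had 0.58 in mouse 2 and -0.69 to -0.14 in the others and did not pass in limma (adjusted p = 0.499; without mouse 2 its mean was -0.33 and it passed, at 0.0493), whereas Cr2, complement receptor 2, was -0.35 in mouse 2, its lowest value, and -0.28 ± 0.07 on average (limma adjusted p = 0.00431). The part of B cell content in the class II ratios was not tested. The means of Cd79a (-0.54, limma adjusted p = 0.0274) and Ms4a1 (-0.44, adjusted p = 0.0295) rested on several mice. Cd79a lost its call without mouse 1, 3, 4 or 5 (adjusted p = 0.051, 0.0946, 0.0854 and 0.0998) and Ms4a1 without mouse 3, 4 or 5 (0.105, 0.0903 and 0.106).

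**Figure D3:**
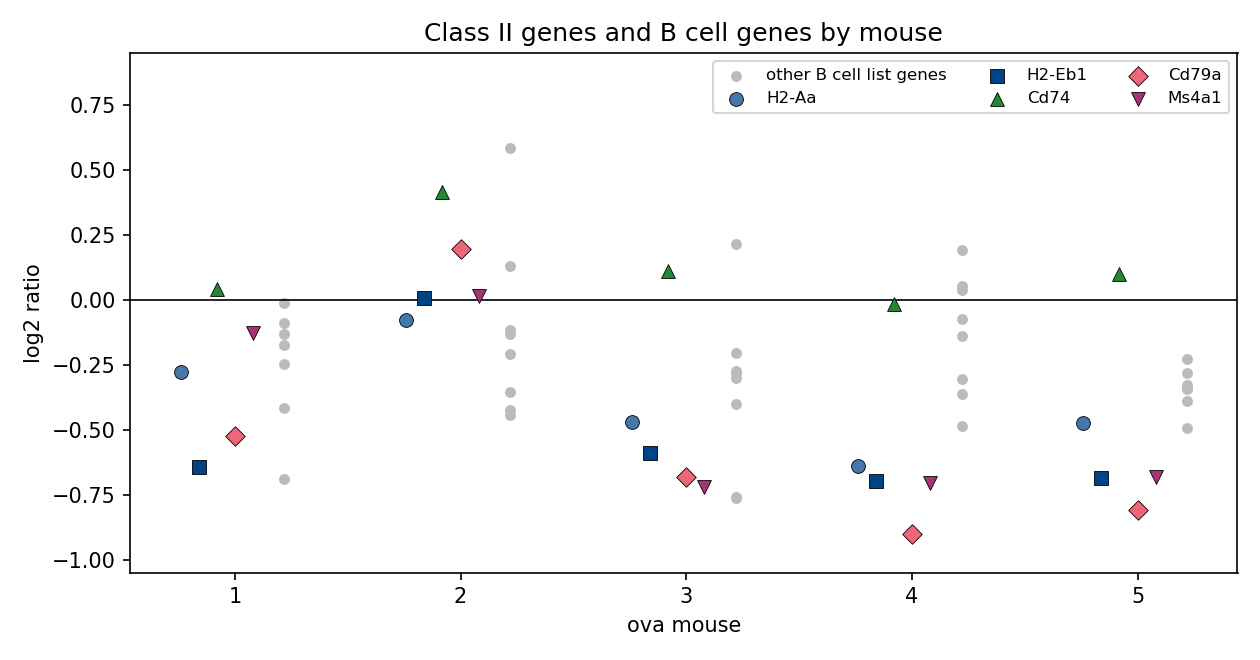
Log2 ratio (y axis) in each ova mouse (x axis) of the class II genes H2-Aa, H2-Eb1 and Cd74 and of the 10 B cell list genes, of which Cd79a and Ms4a1 are coloured and the others grey. H2-Eb1, Cd79a and Ms4a1 are at or above 0 in mouse 2 and below 0 in the other 4 mice, whereas most grey points are below 0 in every mouse.

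Among 9 dendritic cell genes, 3 were called below 0 and 0 above it, with a list median of -0.16. Zbtb46, a transcription factor of classical dendritic cells, had a mean of -0.31 ± 0.10 and Irf8, needed for their development, -0.34 ± 0.12 (limma adjusted p = 0.00425 and 0.00439, n = 5). Itgax, which encodes CD11c, had -0.16 and did not pass. Flt3 (0.14, above 0 in all 5 mice), Itgae (0.05) and Ly75 (0.04) had means above 0 and did not pass either. Among 9 macrophage genes 5 were called below 0 and 0 above it, the list median was -0.46, and C1qb, a complement subunit, had -1.99 ± 0.55. Among 8 alveolar type 2 cell genes 3 were called above 0 and 1 below it, with a list median of 0.08. Sftpc, the surfactant protein C gene, had 0.67 ± 0.39 (limma adjusted p = 0.00851) and the lipid transporter gene Abca3 0.27 ± 0.10 (adjusted p = 0.0066). The gene called below 0 was Sftpd, at -0.47 ± 0.36 (adjusted p = 0.0347, n = 4). Etv5, Slc34a2 and Sftpa1, at -0.18, -0.07 and -0.05, were not called. Among 7 T cell genes 1 was called, Cd2, at -0.54 ± 0.28. Thus markers of class II-bearing cells lay on both sides of the ratio. The median of the T cell list was 0.17 in mouse 2 and -0.20 to -0.03 in the others. Mouse 2 also had the highest list median for B cells and alveolar type 2 cells. Mouse 1 had it for dendritic cells and macrophages. The part of each cell type in the class II ratios was not tested.

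The other genes of the pathway were read from lists. Among 6 endosomal processing genes, 4 were called below 0 and 1 above it, and the list median was -0.30. Ifi30, the thiol reductase that opens disulphide bonds of antigens, had -0.67 ± 0.35 (limma adjusted p = 0.00594), with all 5 mice between -1.20 and -0.21. Sppl2a, a protease that clears the membrane stub of the invariant chain, had -0.26 ± 0.14 (adjusted p = 0.0159), and Lgmn, the asparagine endopeptidase legumain, -0.87 ± 0.63 (adjusted p = 0.0174). Lgmn ran from -1.58 in mouse 2 to -0.06 in mouse 4, whereas mouse 2 was the highest and mouse 4 the lowest for most members. Ctsh, the aminopeptidase cathepsin H, lay on the positive side at 0.59 ± 0.42 (adjusted p = 0.0175). Without mouse 3 or mouse 5 calls were lost for Sppl2a (-0.24 and -0.23; adjusted p = 0.0621 and 0.0607), Lgmn (-0.79 and -0.80; 0.0708 and 0.0679) and Ctsh (0.52 and 0.57; 0.071 and 0.0639).

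Of 6 genes of the route by which interferon-gamma induces Ciita, 2 were called below 0 and 0 above it. Socs1, the feedback inhibitor of the receptor's kinases, had -1.07 ± 0.35 (limma adjusted p = 0.00112), and Jak2, one of those kinases, -0.51 ± 0.15 (adjusted p = 0.00149), each below 0 in all 5 mice. Ifngr2, a receptor chain, had -0.19 ± 0.21 and Irf1, an activator of the Ciita promoter, -0.15 ± 0.19, with adjusted p = 0.103 and 0.171; without mouse 4 both were called, at -0.26 and -0.22 (0.0337 and 0.0382). Ifng itself, named after its value was seen, had -0.03 ± 0.09. The promoter factors gave 0 of 5 in limma on either side, and their means lay between -0.10 (Creb1) and 0.06 (Nfyc), with the NF-Y subunits Nfya and Nfyb at -0.05 and -0.07 and the RFX subunit Rfxank at 0.06. No promoter factor reached an unadjusted p of 0.05. Of the genes for turnover of surface class II, the ubiquitin ligases Marchf1 and Marchf8 and their antagonist Cd83 had 0.04, 0.03 and 0.01, and 0 of 3 passed, none at an unadjusted p of 0.05.

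Of 9 genes of T cell partners and costimulatory molecules, 4 were called below 0 and 0 above it. Cd40, the receptor through which T cells license antigen-presenting cells, had -0.43 ± 0.15, and Lag3, an inhibitory T cell receptor that binds class II, -0.35 ± 0.14 (limma adjusted p = 0.00301 and 0.00485, n = 5). Cd274, which encodes PD-L1, had -0.25 ± 0.16 (limma adjusted p = 0.0241). Ctla4, the inhibitory receptor for CD80 and CD86, had -0.38 ± 0.31 (limma adjusted p = 0.0435, n = 4). Cd274 lost its call without mouse 3, 4 or 5 (adjusted p = 0.068, 0.0572 and 0.0557). Ctla4, with no value in mouse 4, lost its call without mouse 2 (0.0768), 3 (0.149), 4 (0.0535) or 5 (0.129). Of the invariant chain's partners at the cell surface, the co-receptors Cd44 (-0.40 ± 0.31, adjusted p = 0.0287) and Cxcr4 (-0.31 ± 0.24, adjusted p = 0.0447, n = 4) passed and the ligand Mif (-0.19 ± 0.34) did not. Without mouse 3, 4 or 5 calls were lost for Cd44 (0.0938, 0.0793 and 0.103) and Cxcr4 (0.153, 0.138 and 0.15).

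Class I presentation genes, which load peptides from the cytosol for CD8+ T cells, lay further to the negative side than the class II members. Of 12 class I genes 9 were called below 0 and 0 above it, with a list median of -0.45, against 3 of 9 class II members with a median of -0.04; no test was made of this difference. Psmb9, an immunoproteasome subunit, had -0.57 ± 0.10 (limma adjusted p = 0.000634), and Pdia3, a disulphide isomerase of the class I loading complex, -0.76 ± 0.23. H2-T23, the Qa-1 heavy chain, had -0.48 ± 0.12 and the lectin chaperone gene Calr -0.95 ± 0.45. These 4 genes were below 0 in all 5 mice, mouse 2 included.

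**Figure D4:**
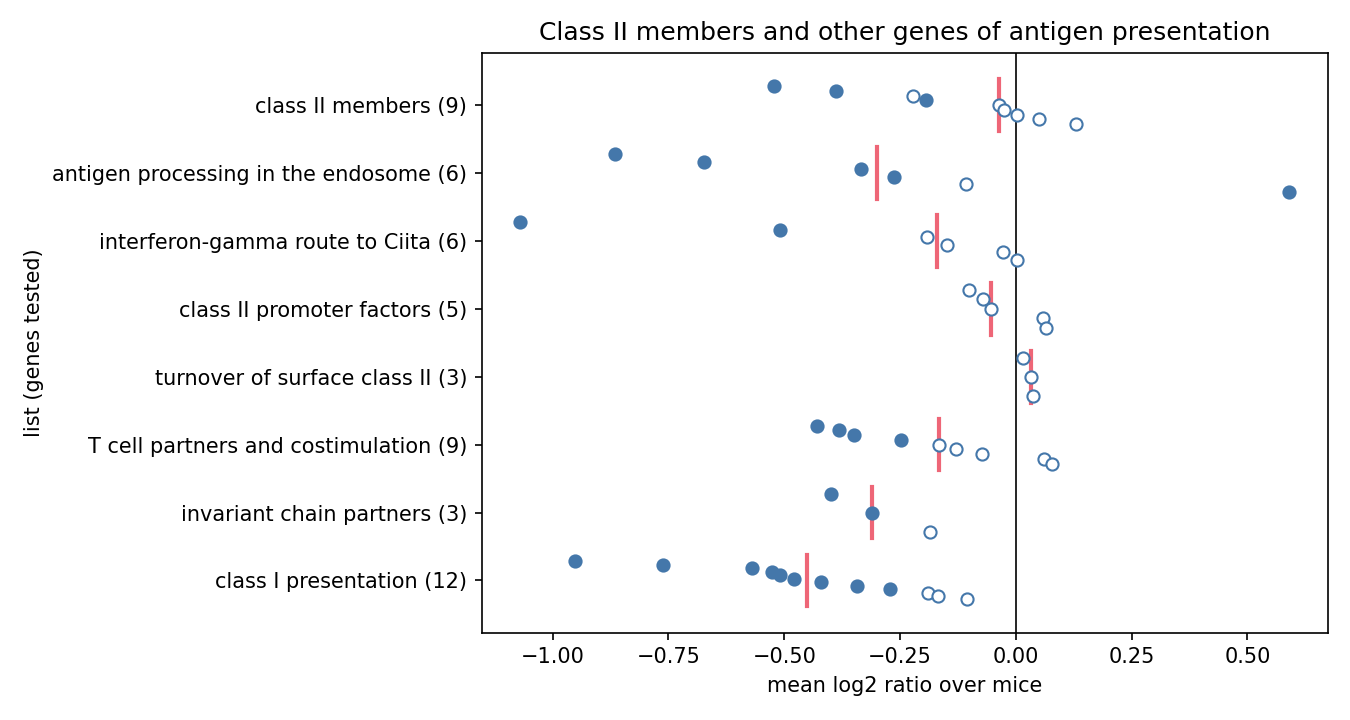
Mean log2 ratio over mice (x axis) of the 9 class II members and of the genes tested in each of 7 lists of antigen presentation (y axis, number of genes in brackets); filled points passed a limma adjusted p of 0.05 and the red line is the median of the list. The median is -0.04 for the class II members and -0.45 for class I presentation, and the promoter factors and turnover genes lie close to 0 with no filled point.

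Both pathways share 1 stretch of chromosome 17, which allowed neighbours to be read in order. In RefSeq's order the genes run H2-Oa, Brd2, H2-DMa, H2-DMb2, H2-DMb1, Psmb9, Tap1, Psmb8, Tap2, H2-Ob, H2-Ab1, H2-Aa, H2-Eb1, H2-Eb2 and H2-Ea. Brd2, a bromodomain chromatin reader between H2-Oa and H2-DMa, lay on the positive side at 0.42 ± 0.18 (limma adjusted p = 0.0051), next to -0.22 for H2-DMa. The class I genes between H2-DMb1 and H2-Ob had -0.57 for Psmb9, -0.17 for Tap1, -0.34 for Psmb8 and -0.27 for Tap2, of which all but Tap1 were called. Psmb8 lost its call without mouse 2 (adjusted p = 0.0506) or mouse 4 (0.0636), and Tap1 was called without mouse 3 (-0.23, adjusted p = 0.029). Tapbp, the class I editor tapasin, which lies outside that stretch, had -0.42 ± 0.18.

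The genes whose ratios lay nearest to the mean profile of H2-Aa, H2-Ab1 and H2-Eb1 over the 5 mice were Arf1, Wac, Eif3e, Trim59 and Mcm2, among 8021 genes with 5 values. By leave-one-out, Arf1 and Eif3e kept their calls without mice 1 and 2, Wac likewise, and Trim59 and Mcm2 without mouse 2 alone; without other mice the adjusted p ran up to 0.129. Their root mean square difference from that profile was 0.054, 0.062, 0.063, 0.071 and 0.082 on the log2 scale. The profile itself was -0.28, 0.03, -0.38, -0.51 and -0.37 in mice 1 to 5. Arf1 encodes a small GTPase of vesicle coats, Eif3e a translation initiation subunit and Mcm2 a subunit of the replicative helicase. These 5 genes had means between -0.31 and -0.23. The probe of Trim59 lies 18 IDs from that of H2-Aa, and the probe of Mcm2 24 IDs from that of H2-DMa. The part of probe position in these values was not tested.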

How the data were processed

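Each value is a log2 ratio per probe and array, made by the authors from a 2-colour array; the deposited table states neither log base, numerator, dyes, background correction nor within-array normalization. Its largest size, 5.168, exceeds the log10 range of a 16-bit scanner (4.82), and base 2 was taken; with another base folds change and tests do not. Spot intensities were not used here, so saturated or dim spots could not be told. Of 17280 probes, 14722 had 1 symbol in GEO's platform annotation, 1 several and 2557 none; 14445 matched RefSeq's gene table by gene identifier. Arrays were centred on their medians, and probes with values on at least 4 arrays were averaged per gene. Genes were tested against 0 with limma 3.58.1 in R 4.3.3 (lmFit, eBayes, two-sided, Benjamini-Hochberg over 9715 genes, threshold 0.05); the pool counts as 1 control sample. On simulated data with 200 shifted genes, 98.5% of those shifted by 1 and 78% by 0.5 were recovered, with 4.83% and 6.59% false calls. The number of arrays limits the precision.

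The genes named are the 9 members, up to 4 genes of smallest p in each pathway list (lists of 5 or fewer in full), the 5 genes nearest in profile, Retnla and Clca1; cell type markers and others named were chosen after their values were seen. The members and lists were chosen with earlier results of these data known. Alternatives covered centring, scaling, quantile normalization, probe filters, averaging order, neighbouring probes, robust eBayes, array weights and each mouse left out.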

Additional observations from a re-analysis of the deposited data

Results flagged for a closer look

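With 61 genes examined for a mouse far from the other mice, 4 were found; chance gives about 1 in 20. The H2-Eb1 ratio of mouse 2, 0.007, lay apart from the other mice (-0.70 to -0.59). For Cxcr4 mouse 2, at 0.039, lay apart from -0.48 to -0.395 in the other mice with a value. For Jak2 mouse 1 had -0.25 against -0.59 to -0.55, and for Psmb8 mouse 5 had -0.79 against -0.31 to -0.16.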

How the results depend on the processing

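Over 16 alternatives, H2-Aa and H2-Eb1 stayed on the negative side and past the threshold (limma adjusted p at most 0.0449 and 0.0399), with means of -0.53 to -0.325 and -0.66 to -0.48. H2-DMb1 kept its side but lost its call in every fit without 1 mouse (-0.22 to -0.135) and without mice 1 and 2 together, a setting added after seeing the data (-0.26, adjusted p = 0.0586); its adjusted p ran from 0.0266 to 0.122. The other 6 members were called under none, though the mean of H2-Ab1 changed sign, between -0.08 and 0.05, as did that of H2-Ob, between -0.04 and 0.01. Members called on the negative side numbered 2 or 3 and on the positive side 0. H2-Oa had no value without probes near a strong probe of another gene. Without 1 mouse, genes called ranged from 929 to 1440 on the negative side, against 1477, and from 672 to 1133 on the positive side, against 1199, with the fewest without mouse 5; fewer arrays enter these fits. No paired analysis was possible because the series has 1 group. Signal over background was not available to any step.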
